A study of Capra hircus with 40 samples.

Results

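Ovaries of female Jining gray goats at month 6 after birth were compared with ovaries at month 4, by counts of mature microRNAs (miRNAs). The comparison takes the 5 ovary libraries of month 6 and the 5 of month 4, 10 of the 40 libraries in the series, and all 427 miRNA entries of the count table. The series follows ovary and uterus at day 1 and at months 2, 4 and 6. Each library is labelled as a separately numbered individual, and the goats were kept on 1 farm under shared conditions. No treatment or genetic alteration is recorded, and the labels give neither the stage of the estrous cycle nor a sequencing batch. The breed is known for early sexual maturity and large litters, and the comparison covers the later step of the maturation period that the study sampled.

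A miRNA is cut from a hairpin RNA whose arms are named 5p and 3p. The strand that is loaded into an Argonaute protein pairs with messenger RNAs through its seed and lowers their translation and stability. In the ovary miRNAs are best known for their part in granulosa cell growth, steroid hormone synthesis, follicle loss and the formation of the corpus luteum. Many of them also mark single tissues, so a bulk library of an organ reports its mix of cells as well as the state of each cell. In these bulk libraries fewer cells of a type and less miRNA per cell cannot be told apart.

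The smallest p-values went, among miRNAs with a higher mean at month 6, to ones that were high in 2 of the 5 month 6 libraries, such as miR-101-3p, miR-30e-5p, miR-1248-5p and let-7b-3p. On the lower side they went mostly to miRNAs of the imprinted DLK1-DIO3 locus, which were high in 1 of the 5 month 4 libraries. The level of miR-129-3p was above all 5 month 4 libraries in 4 of the 5 month 6 libraries, and that of miR-363-3p was below all of them in 3. None of these miRNAs passed the main test, the quasi-likelihood test of edgeR with Benjamini-Hochberg adjustment. Of 317 miRNAs that passed the filter on low counts, 0 had an adjusted p under 0.05 (0% called), and the smallest adjusted p was 0.260. At an unadjusted p under 0.05 there were 37 (11.7%), of which 19 had a higher estimate at month 6 (5.99%) and 18 a lower one (5.68%). With DESeq2 size factors in place of the trimmed mean of M values (TMM) the same threshold gave 25 higher and 12 lower, and with library totals alone 9 higher and 17 lower. The Wald test of DESeq2 called 5 of 313 miRNAs with an adjusted p (1.6%), and limma's voom with sample weights called 0 and gave 9 at an unadjusted p under 0.05 (2.84%). The median log2 change over all 317 was -0.09, with 138 above 0 (43.5%) and 179 under 0 (56.5%).

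**Figure D1:**
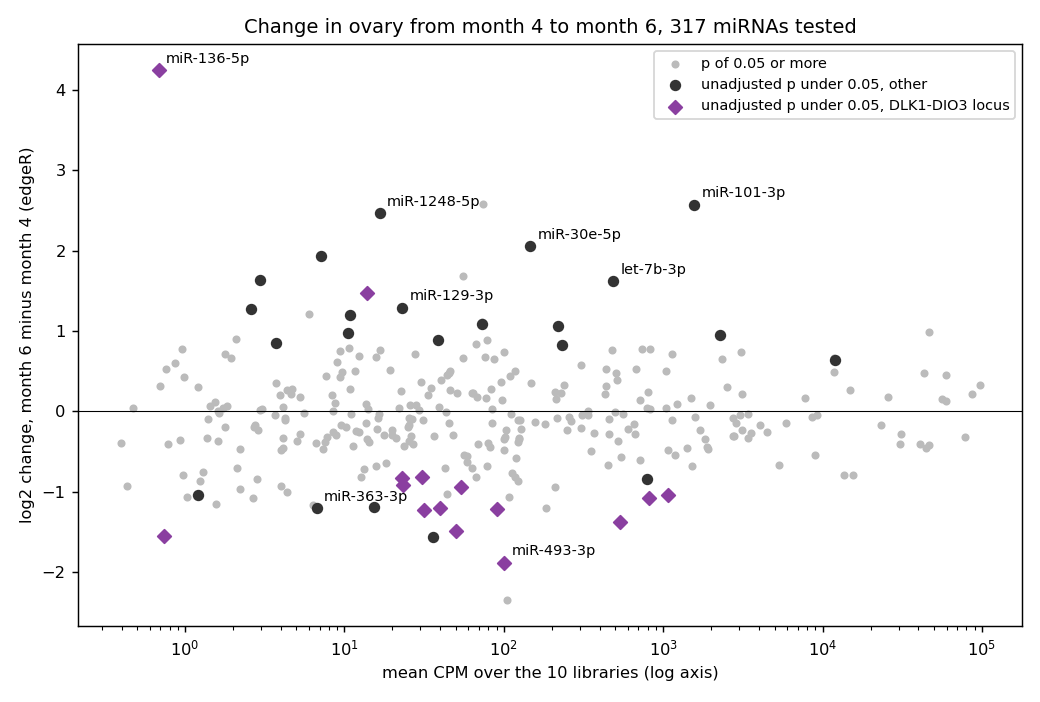
Log2 change from month 4 to month 6 (vertical axis) against the mean level over the 10 libraries (CPM, counts scaled to the library total, horizontal log axis), 1 point per miRNA tested. Dark circles and purple diamonds have an unadjusted p under 0.05, and 13 of the diamonds, which belong to the DLK1-DIO3 locus, lie under 0.

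The spread within the groups was wide. The biological coefficient of variation common to all miRNAs was 0.624, and the median standard error (SE) of a log2 change was 0.44. The median SD of log2 CPM over the 5 libraries was 0.665 at month 4 and 0.698 at month 6, and 180 of the 317 miRNAs had the larger SD at month 6.

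3 of the 10 libraries stood apart from the rest of their groups. Month 6 replicates 2 and 4 scored 18.0 and 17.3 on the second principal component, which held 24.0% of the variance, while the other 8 libraries lay between -8.08 and -1.55. Both of these libraries exceeded all 8 others in 51 miRNAs and lay below all 8 in 53. Replicate 5 of month 4 scored -17.2 on the third component (12.4% of the variance), exceeded all 9 others in 80 miRNAs and lay below all of them in 29. The first component (43.6%) was led by the epithelial miR-34 and miR-200 miRNAs and did not separate the ages. Totals ran from 5889079 to 6897802 counts at month 4 and from 6316644 to 8017302 at month 6. Replicate 5 of month 4 and replicate 4 of month 6 had the highest totals of their groups, and replicate 2 of month 6 had 6817883. Replicate 4 of month 4 was also above all 9 others in 81 miRNAs, and replicate 2 of month 4 was below all of them in 66. Without the pair of month 6 libraries 0 of 333 miRNAs were called by edgeR, and 6 had an unadjusted p under 0.05 (1.8%), 0 of them higher. Without replicate 5 of month 4, 0 of 328 were called and 24 had an unadjusted p under 0.05 (7.32%), 21 higher (6.4%) and 3 lower (0.915%). Without all 3 libraries 0 of 333 were called and 3 had an unadjusted p under 0.05 (0.901%), 1 higher (0.3%) and 2 lower (0.601%). Values without some or all of these libraries stand beside many of the results.

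The share held by the most abundant miRNAs did not differ beyond the spread between libraries. The 10 most abundant of each library held 63.3% ± 5.58 of counts at month 4 and 67.5% ± 6.45 at month 6 (SD, n = 5; exact two-sided permutation p = 0.325, adjusted over the 2 such tests 0.484). Libraries held 356 ± 12.7 miRNAs with at least 1 count at month 4 and 361 ± 10.1 at month 6 (SD, n = 5; exact two-sided permutation p = 0.484, adjusted 0.484). With 252 possible splits of 5 against 5, the smallest p this test can give is 0.00794.

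miR-143-3p, a smooth muscle miRNA, led the 10 libraries with a mean of 9.66% of counts. It stood at 51452, 81395, 72468, 58548 and 181792 CPM at month 4 and at 77633, 109358, 72922, 186562 and 74344 CPM at month 6. The groups overlapped almost fully, with 1 library far above the others at month 4 and another at month 6. The log2 change was 0.32 ± 0.65 (SE), and its sign turned (-0.28) without replicates 2 and 4 of month 6. miR-99a-5p, which shares a gene cluster with let-7c, held a mean of 8.73% and had a log2 change of 0.22 ± 0.34. miR-125b-5p, miR-10b-5p, miR-26a-5p and miR-125a-5p had log2 changes of 0.45 ± 0.42, 0.13 ± 0.35, 0.16 ± 0.28 and 0.48 ± 0.50. The let-7 miRNAs among the 10 most abundant, known as brakes on cell growth and stemness genes, had estimates under 0. These were -0.31 ± 0.50 for let-7a-5p, -0.42 ± 0.61 for let-7c-5p and -0.45 ± 0.56 for let-7b-5p, on the log2 scale. The estimates of let-7a-5p, let-7b-5p and let-7c-5p turned to 0.24, 0.10 and 0.13 without the pair of month 6 libraries, and those of miR-99a-5p and miR-26a-5p to -0.12 and -0.13. Without all 3 libraries miR-125b-5p and miR-125a-5p had -0.11 and -0.15.

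miR-148a-3p had the largest estimate among the 10 most abundant. Its levels were 21348, 31358, 38677, 24070 and 47307 CPM at month 4 and 19982, 108252, 28138, 128270 and 17342 CPM at month 6. Month 6 replicates 2 and 4 were above every month 4 library, and replicates 1 and 5 were below every one. The log2 change was 0.99 ± 0.50 (SE, edgeR adjusted p = 0.448), and -0.59 without that pair of libraries.

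miR-101-3p had the smallest p among the higher miRNAs at a mean of 10 CPM or more. It is known for repressing EZH2, the enzyme that places the repressive mark on histone H3 in Polycomb silencing. Its levels were 564, 506, 512, 443 and 345 CPM at month 4 and 294, 5489, 365, 6301 and 834 CPM at month 6. Replicates 2 and 4 of month 6 were far above month 4, replicate 5 was somewhat above it, replicate 3 lay within its range and replicate 1 below it. The mean was 474 ± 83.9 CPM at month 4 and 2656 ± 2977 CPM at month 6 (SD, n = 5), a log2 change of 2.57 ± 0.74 (SE). edgeR gave it an adjusted p of 0.260 and the Wald test of DESeq2 one of 0.0251. Without replicates 2 and 4 of month 6 the log2 change of miR-101-3p was 0.03, and without all 3 libraries that stood apart it was -0.08.

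miR-129-3p had a higher estimate that did not vanish without those libraries. It is known chiefly from brain. Its levels were 15.9, 13.1, 18.4, 9.90 and 10.4 CPM at month 4 and 26.3, 69.5, 17.8, 29.3 and 19.9 CPM at month 6. All 5 month 6 libraries were above the month 4 median, and 1 month 6 library lay within the month 4 range. The mean was 13.5 ± 3.62 CPM at month 4 and 32.6 ± 21.2 CPM at month 6 (SD, n = 5), a log2 change of 1.29 ± 0.37 (SE, edgeR adjusted p = 0.260, DESeq2 adjusted p = 0.0462). Without replicates 2 and 4 of month 6 it was 0.58, and without the 3 libraries 0.48. Its partner from the same hairpin, miR-129-5p, had an estimate of 0.35, and of 0.02 without the pair. Without the pair 0 of 333 miRNAs were higher at an unadjusted p under 0.05, miR-129-3p included. It was not alone in keeping a higher estimate: miR-181c-5p, at a mean of only 2.59 CPM, had 1.28, and 0.67 both without the pair and without the 3 libraries.

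miR-30e-5p belongs to the widely expressed miR-30 family, whose members share a seed. Its levels were 63.5, 28.4, 56.5, 86.7 and 78.6 CPM at month 4 and 43.4, 534, 32.1, 443 and 103 CPM at month 6. Replicates 2 and 4 of month 6 were again the high ones, and replicates 1 and 3 lay within the month 4 range. The log2 change was 2.05 ± 0.66 (SE, edgeR adjusted p = 0.299, DESeq2 adjusted p = 0.0462), and -0.01 without that pair. The other arm of the hairpin, miR-30e-3p, ran from 255 to 425 CPM at month 4 and from 278 to 388 CPM at month 6, with replicates 2 and 4 at 332 and 388 CPM. miR-30a-5p was at 1662 ± 685 CPM at month 4 and 2888 ± 1851 CPM at month 6 (SD, n = 5), and its log2 change of 0.95 ± 0.43 (SE) was also -0.01 without the pair. Over the 11 family members tested the median was 0.36, with 2 higher at an unadjusted p under 0.05 (background 5.99%), 0 lower (background 5.68%) and 0 called. Without the pair the family's median was -0.12, against -0.12 for all miRNAs tested.

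miR-1248-5p, whose human counterpart lies within a small nucleolar RNA, stood at 2.33, 10.2, 3.62, 5.43 and 4.49 CPM at month 4 and at 4.59, 60.1, 3.16, 68.2 and 4.79 CPM at month 6. Replicates 2 and 4 were the only month 6 libraries above the month 4 range. The log2 change was 2.47 ± 0.80 (SE, edgeR adjusted p = 0.299, DESeq2 adjusted p = 0.0462), and -0.47 without them. miR-136-5p, the fifth miRNA called by DESeq2 (adjusted p = 0.0323), was near the detection limit. It was listed at 0 in 4 month 4 libraries and at 0.290 CPM in replicate 5. At month 6 it was at 0, 2.20, 0.126, 3.74 and 0.463 CPM, so replicates 2 and 4 held most of its counts and no fold is given.

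**Figure D2:**
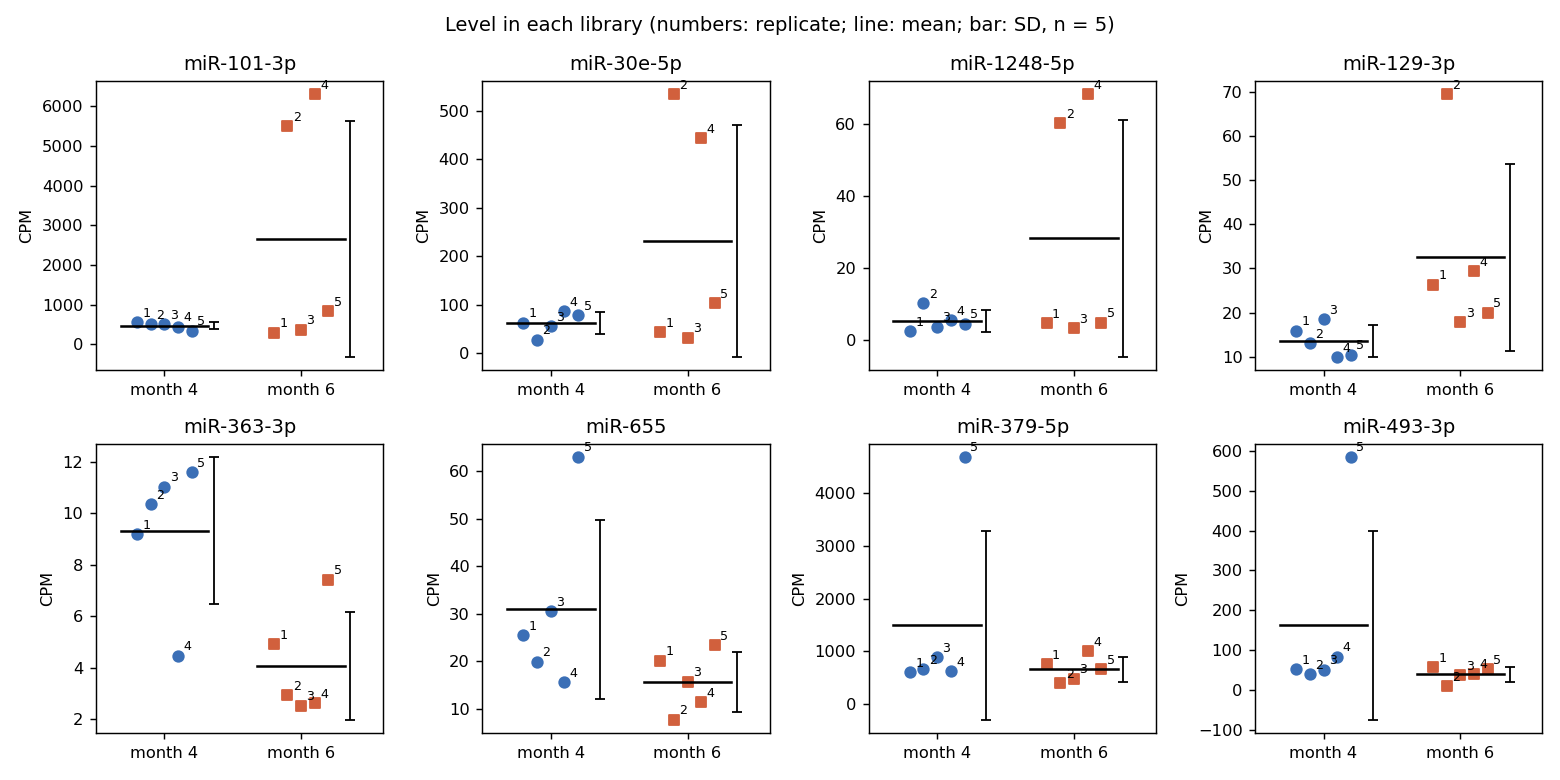
Level in CPM (linear vertical axis) of 8 miRNAs in each ovary library at month 4 (circles) and month 6 (squares). Numbers name the replicate, lines the mean and bars the SD (n = 5): replicates 2 and 4 of month 6 carry the high values of miR-101-3p, miR-30e-5p and miR-1248-5p, and replicate 5 of month 4 those of miR-379-5p and miR-493-3p.

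The other miRNAs with the smallest p among the higher ones followed the same pair of libraries to varying degrees. miR-499-5p, encoded in an intron of a myosin gene, was at 6.90 ± 2.42 CPM at month 4 and 14.7 ± 9.53 CPM at month 6 (SD, n = 5), and its log2 change of 1.19 ± 0.47 (SE) was 0.41 without the pair. miR-140-5p, best known from cartilage, had 0.89 ± 0.38 and 0.12 without the pair. miR-99b-5p, clustered with let-7e, was at 9726 ± 1728 CPM at month 4 and 14369 ± 4806 CPM at month 6, with a log2 change of 0.64 ± 0.27 and 0.16 without the pair. miR-335-5p, from an intron of the imprinted MEST gene, had 0.97 ± 0.42 and 0.42 without the pair, and miR-455-5p had 1.07 ± 0.46 and -0.33. edgeR's adjusted p was 0.397 for each of these 5.

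**Figure D3:**
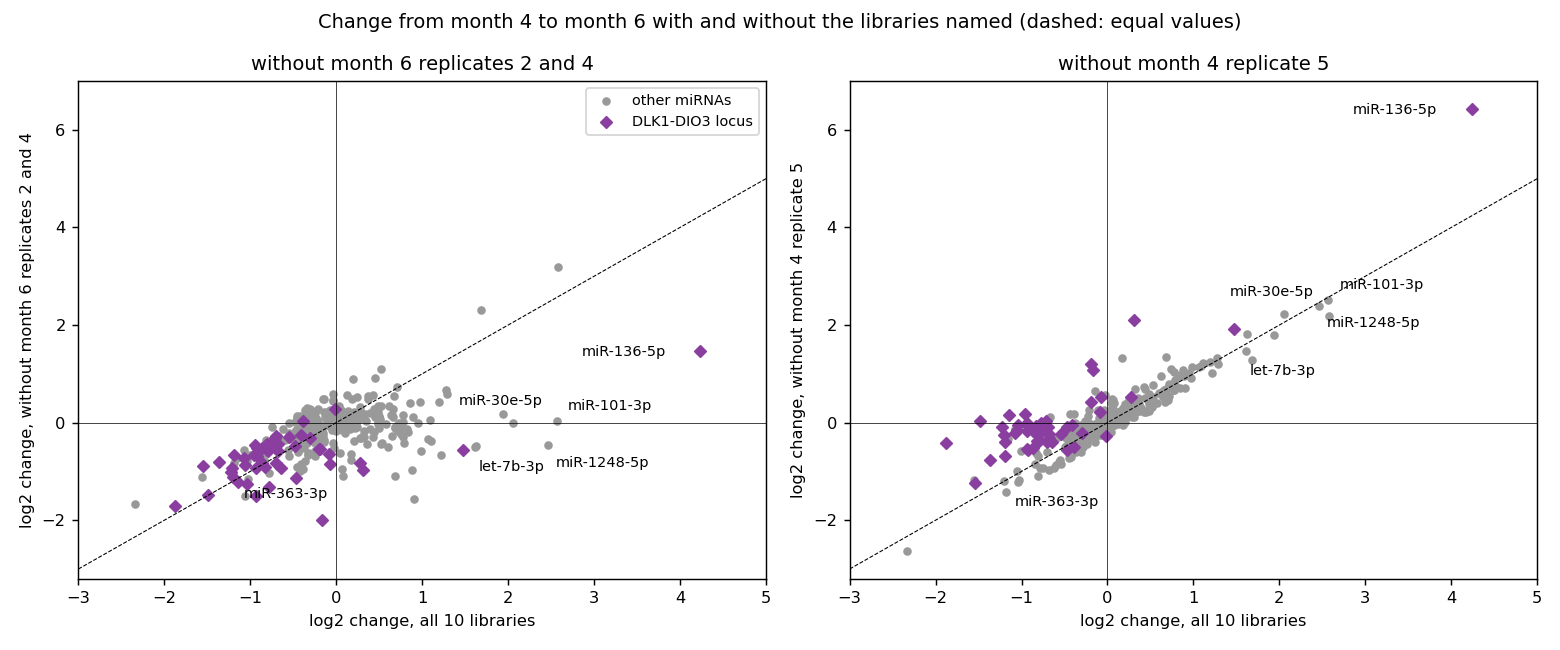
Log2 change of each miRNA with all 10 libraries (horizontal axis) against the value without replicates 2 and 4 of month 6 (left) or without replicate 5 of month 4 (right). Points on the dashed line have equal values: miR-101-3p, miR-30e-5p, miR-1248-5p and let-7b-3p drop to about 0 or below on the left, and most DLK1-DIO3 diamonds move up toward 0 on the right. The value of miR-136-5p, at 0 in 4 month 4 libraries, rests on the fit's prior count.

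Among the lower estimates, miR-363-3p moved little when libraries were left out. It belongs to the miR-106a-363 cluster, an X-linked paralog of the growth-promoting miR-17-92 cluster. Its levels were 9.18, 10.4, 11.0, 4.47 and 11.6 CPM at month 4 and 4.91, 2.93, 2.52, 2.62 and 7.41 CPM at month 6. 4 of the 5 month 4 libraries were above every month 6 library, and replicate 4 of month 4 lay inside the month 6 range. The mean was 9.33 ± 2.86 CPM at month 4 and 4.08 ± 2.10 CPM at month 6 (SD, n = 5), a log2 change of -1.20 ± 0.37 (SE, edgeR adjusted p = 0.299, DESeq2 adjusted p = 0.126). It was -1.03 without replicates 2 and 4 of month 6, -1.19 without replicate 5 of month 4 and -0.98 without all 3.

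miR-130a-5p was the single miRNA whose groups did not overlap, 1 of 317 (0.315%), and it was picked out for that after its values were seen. It stood at 3.50, 3.40, 4.57, 3.03 and 3.91 CPM at month 4 and at 1.74, 1.32, 2.02, 2.00 and 2.78 CPM at month 6. Every month 4 library was above every month 6 library, at levels of a few CPM. The log2 change was -0.84 ± 0.46 (SE, edgeR adjusted p = 0.469). No miRNA had all month 6 libraries above all month 4 libraries (0%).

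miR-338-5p, from an intron of the neuronal kinase gene AATK, stood at 11.5, 36.8, 28.3, 15.3 and 12.3 CPM at month 4 and at 18.5, 2.93, 6.19, 5.36 and 16.1 CPM at month 6. 3 month 6 libraries were below the month 4 range and the other 2 within it. Its log2 change was -1.18 ± 0.48 (SE, edgeR adjusted p = 0.397), -0.83 without replicates 2 and 4 of month 6 and -1.42 without replicate 5 of month 4. It was -0.69 without replicate 2 of month 4.

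9 of the 10 lower miRNAs chosen by p belong to the DLK1-DIO3 locus. This imprinted domain carries one of the largest miRNA clusters of mammals, expressed from the maternal chromosome. The genes DLK1, MEG3 and DIO3 lie beside or among these miRNAs, which are abundant in fetal tissue, brain and mesenchyme. Of the 68 entries of the locus by name, 47 passed the filter. Their median log2 change was -0.79, against -0.09 for all miRNAs tested, with 44 under 0 (background 56.5%). At an unadjusted p under 0.05, 13 were lower (background 5.68%) and 2 higher (background 5.99%), both arms of miR-136, and 0 were called after adjustment.

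That median rested on replicate 5 of month 4. The summed level of the locus was 11479, 18177, 15934, 17041 and 56441 CPM at month 4 and 20851, 5817, 10647, 10101 and 16199 CPM at month 6. Replicate 5 of month 4 was far above every other library, and replicate 2 of month 6 was the lowest. Of the 80 miRNAs in which replicate 5 of month 4 exceeded all 9 others, 42 were from the locus, which held 47 of the 317 tested. Of the 29 in which that library lay below all 9, 0 were. Replicates 2 and 4 of month 6 lay below all 8 others in 53 miRNAs, of which 14 were from the locus. They exceeded all 8 in 51, of which 2 were. Without replicate 5 of month 4 the median over the locus was -0.17, against -0.01 for all miRNAs tested, with 34 of 47 under 0 (background 50.6%). In that fit 0 were lower at an unadjusted p under 0.05 (background 0.915%) and 4 higher (background 6.4%). Without replicates 2 and 4 of month 6 the locus median was -0.67, against -0.12 for all miRNAs tested, and without all 3 libraries -0.10, against -0.06.

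miR-379-5p opens the large block of miRNA genes toward DIO3. It stood at 604, 652, 885, 618 and 4694 CPM at month 4 and at 749, 391, 479, 999 and 656 CPM at month 6. Apart from replicate 5 of month 4 the libraries of both ages overlapped. Its log2 change was -1.04 ± 0.47 (SE), and -0.05 without that replicate. miR-493-3p, at the DLK1 end, ran from 39.1 to 83.7 CPM in 4 month 4 libraries and stood at 585 CPM in replicate 5, against 9.39 to 56.4 CPM at month 6. Its log2 change was -1.88 ± 0.73 (SE), and -0.43 without that replicate. miR-412-5p ran from 16.1 to 31.3 CPM in 4 month 4 libraries, stood at 279 CPM in replicate 5, and ran from 17.0 to 30.1 CPM at month 6. Its log2 change of -1.49 ± 0.58 (SE) turned to 0.04 without replicate 5. edgeR's adjusted p with all libraries was 0.397 for each of these.

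miR-655 was the least dependent on that library among the locus miRNAs chosen by p. It stood at 25.5, 19.9, 30.5, 15.5 and 63.1 CPM at month 4 and at 20.1, 7.63, 15.7, 11.4 and 23.3 CPM at month 6. The 2 lowest libraries were replicates 2 and 4 of month 6, and the highest was replicate 5 of month 4. The fitted log2 change was -0.92 ± 0.35 (SE, edgeR adjusted p = 0.397), -0.57 without replicate 5 of month 4 and -0.29 without all 3 libraries. miR-493-5p had -1.37 ± 0.61 (SE), and its lowest values were 30.4 and 65.4 CPM in replicates 2 and 4 of month 6, while the other 8 libraries were at 381 CPM or more. The value was -0.76 without replicate 5 of month 4, -0.81 without the month 6 pair and -0.14 without all 3. miR-323b, miR-3958-3p, miR-495-3p and miR-382-3p had log2 changes of -1.22, -1.21, -1.20 and -0.94, and of -0.09, -0.26, -0.41 and -0.16 without replicate 5 of month 4. miR-127-3p, which lies antisense to the imprinted RTL1 gene and is the best known member, stood at 17663 ± 12482 CPM at month 4 and 9776 ± 4866 CPM at month 6 (SD, n = 5), a log2 change of -0.79 ± 0.39 (SE), and -0.38 without replicate 5. miR-136-3p had an estimate above 0, with 1.47 ± 0.66 (SE), and -0.56 without replicates 2 and 4 of month 6, where it stood at 38.3 and 45.2 CPM against 2.38 to 16.1 CPM elsewhere.

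Estimates were similar on both sides of the locus. In the RefSeq annotation of the goat assembly ARS1.2, which need not be the build of the table, 45 miRNA genes lie between DLK1 and DIO3. 37 of these genes gave 48 mature miRNAs tested, the 47 named above and 1 more. The median log2 change was -0.80 for 28 miRNAs on the DLK1 side of the middle and -0.73 for 20 on the DIO3 side. Without replicate 5 of month 4 these were -0.16 and -0.18.

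**Figure D4:**
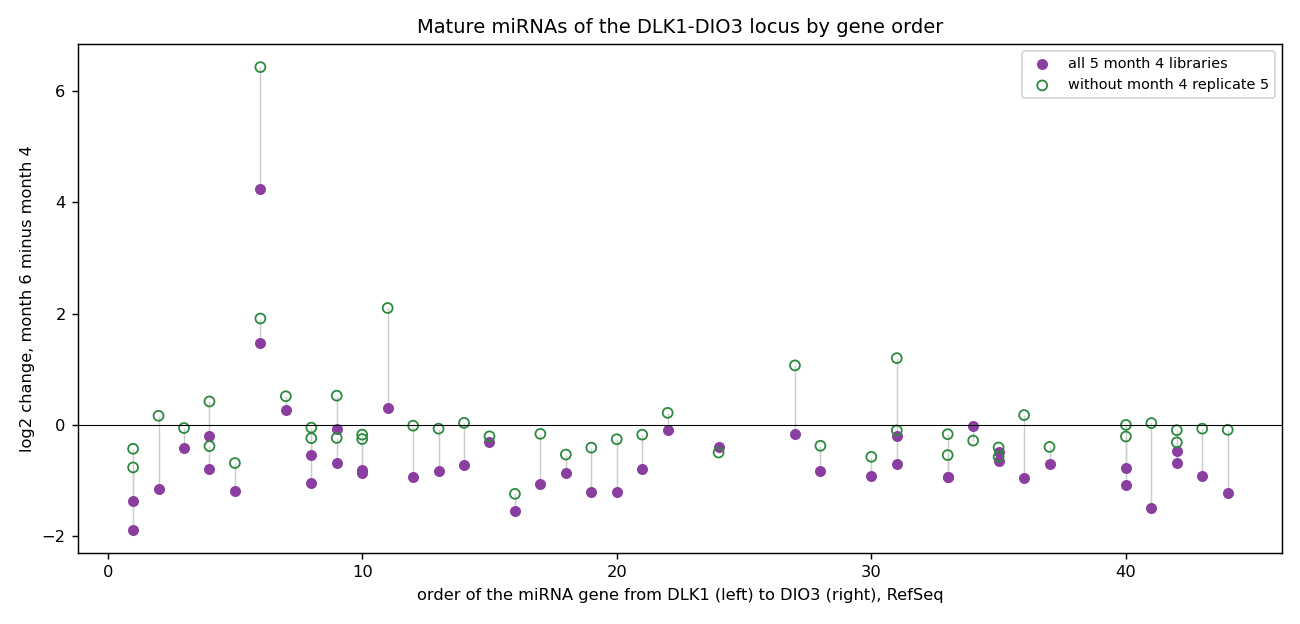
Log2 change from month 4 to month 6 (vertical axis) of 48 mature miRNAs by the order of their genes from DLK1 to DIO3 in RefSeq (horizontal axis), with all libraries (filled) and without replicate 5 of month 4 (open). Leaving out that library moves most points up along the whole locus, from a median of -0.79 to -0.17.

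The let-7 family split by arm with all libraries, and the split was gone without replicates 2 and 4 of month 6. Of its 15 entries tested the median log2 change was -0.28, with 6 above 0 (background 43.5%) and 9 under 0 (background 56.5%). At an unadjusted p under 0.05, 2 were higher (background 5.99%) and 0 lower (background 5.68%), and 0 were called after adjustment. The 6 above 0 were all 3p arms and the 9 under 0 all 5p arms. Without the pair the median was 0.10, 4 of the 6 3p arms were under 0 (let-7a, let-7b, let-7c and let-7d) and 6 of the 9 5p arms above 0. How reads shared by the near-identical 5p arms were split among them is not stated in the sources used here. let-7b-3p stood at 192, 419, 150, 334 and 128 CPM at month 4 and at 279, 1421, 174, 1644 and 109 CPM at month 6. Replicates 2 and 4 of month 6 were the only libraries above the month 4 range. Its log2 change was 1.62 ± 0.65 (SE, edgeR adjusted p = 0.397), and -0.51 without them. In the same pair the family's summed level was 79021 and 83170 CPM, against 331121 to 387280 CPM in the other 3 month 6 libraries and 255963 to 361119 CPM at month 4.

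The ratio of the 5p to the 3p arm was compared within each library, so that it depends little on library scaling. Ratios with an arm near the pseudocount of 1 CPM, which was added to each arm, do depend on it. None of 99 hairpins with both arms tested was called by limma (0%), and 6 had an unadjusted p under 0.05 (6.06%), 2 with a higher ratio at month 6 (2.02%) and 4 with a lower one (4.04%). miR-335 had the smallest p, with a change of 1.17 ± 0.38 (SE) in the log2 ratio (limma adjusted p = 0.572), and 0.84 without replicates 2 and 4 of month 6. let-7i had -1.06 ± 0.44 and -0.43 without that pair, and miR-1306 had 1.11 ± 0.47 and 0.27. miR-105b and miR-3959 kept most of their size, at -0.64 ± 0.28 and -0.51 without the pair, and -0.64 ± 0.28 and -0.56. Each of these rests on at least 1 arm with few reads. Mean levels over the 10 libraries were 1.29 and 0.763 CPM for miR-105b-5p and miR-105b-3p, and 1.77 CPM for miR-3959-3p. miR-1306-3p and miR-454-5p were also low, at 1.21 and 0.989 CPM. miR-30e and miR-30a had 1.21 and 1.00, and 0.03 and 0.09 without the pair. miR-454 had 1.02 and miR-3432 -1.04, and 0.57 and -0.21 without it. let-7e-5p was at 1604 and 919 CPM in replicates 2 and 4 of month 6 and between 6455 and 14749 CPM in the other 8, while let-7e-3p was at 181 and 107 CPM in them and between 37.7 and 103 CPM in the other 8. The log2 ratio of the let-7e arms differed by -1.34 ± 0.70 (SE, limma adjusted p = 0.593), and by 0.40 without the pair. In 6 of 6 let-7 hairpins with both arms tested the ratio was lower in both of these libraries than in each of the other 8. Over all 99 hairpins it was lower in both for 17 and higher in both for 24. let-7e-5p and let-7b-3p were among the leading miRNAs of the second component, on which the pair stood apart. The let-7 count is therefore not independent of the choice of these libraries.

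Gonadal miRNAs had estimates near 0, with wide errors. miR-202, made in granulosa and other gonadal somatic cells and the marker used to check the tissue, was found in all 10 libraries. miR-202-5p stood at 64.3, 27.5, 49.8, 82.7 and 252 CPM at month 4 and at 28.3, 40.6, 102, 131 and 68.3 CPM at month 6. The groups overlapped, with replicate 5 of month 4 the highest. The fitted log2 change was -0.15 ± 0.90 (SE), 0.64 without that replicate. In uterus no library of either age was above 0.954 CPM. The 8 gonad and granulosa cell miRNAs tested include miR-383, miR-224, miR-378, miR-320 and also miR-21, which is described below. Their median was -0.05, with 0 at an unadjusted p under 0.05 in either direction (background 11.7%). It was 0.19 without replicates 2 and 4 of month 6 and 0.37 without the 3 libraries that stood apart. Without replicate 5 of month 4 it was 0.05, with 1 higher at an unadjusted p under 0.05 (background 6.4%).

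Epithelial miRNAs varied widely between libraries of the same age. The 8 entries of these markers, from the miR-200 and miR-183 groups, summed to 5652, 253, 15678, 47906 and 206 CPM at month 4 and to 36856, 115, 164, 4989 and 244 CPM at month 6. 5 libraries of both ages were at 4989 CPM or more, and the other 5 at 253 CPM or less, with none of the markers at 0 in all 10 libraries. miR-200b, which maintains the epithelial state by repressing ZEB1 and ZEB2, ran from 154 to 38355 CPM at month 4 and from 48.0 to 30654 CPM at month 6, a log2 change of -0.55 ± 1.52 (SE). The markers of ciliated epithelium, miR-34b, miR-34c and miR-449, followed the same libraries, with 8 entries summing to 6.09 to 10472 CPM at month 4 and 2.15 to 4814 CPM at month 6. miR-34c-5p ranged from 2.89 to 5967 CPM at month 4 and from 0.505 to 2525 CPM at month 6, a log2 change of -0.55 ± 1.89 (SE). The medians were -0.55 over 5 miR-200 family members and -0.81 over 5 members of the miR-34/miR-449 family. At an unadjusted p under 0.05, 0 and 1 of these were lower (background 5.68%). The median was -0.59 over 2 members of the miR-183-96-182 cluster, with 0 lower. Single libraries set these values: the miR-200 median was -2.44 without replicate 1 of month 6 and 0.49 without replicate 4 of month 4, and the miR-34/miR-449 median was -2.54 and 0.61. These markers do not tell epithelium of the oviduct, the uterus or the ovarian surface apart, and their part in other results was not tested.

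**Figure D5:**
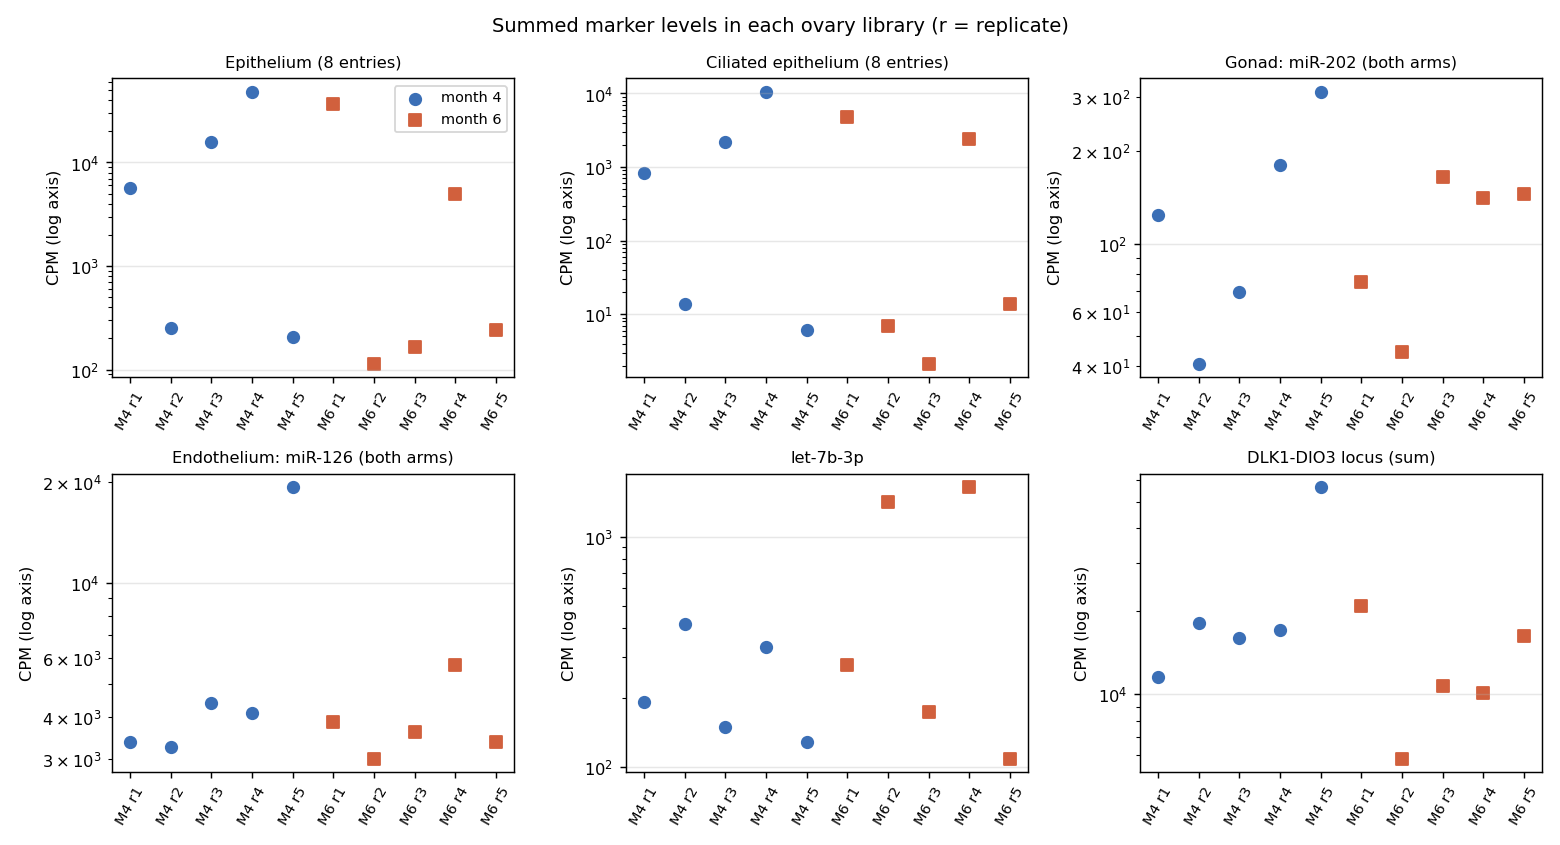
Summed level in CPM (log axis) in each ovary library at month 4 (circles) and month 6 (squares) of epithelial, ciliated, gonadal and endothelial markers, of let-7b-3p and of the DLK1-DIO3 locus. High and low epithelial libraries occur at both ages, let-7b-3p is highest in replicates 2 and 4 of month 6, and endothelial markers and the locus are highest in replicate 5 of month 4.

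The HOX-embedded miRNAs, which lie within the HOX gene clusters and follow position along the body axis, were also uneven among libraries. miR-196b stood at 1.31, 84.9, 0.787, 1.76 and 2.75 CPM at month 4 and at 1.74, 2.35, 388, 5.11 and 255 CPM at month 6. 3 libraries, replicate 2 of month 4 and replicates 3 and 5 of month 6, were far above the other 7. miR-196a was high in the same 3, at 101, 257 and 171 CPM, and at 5.25 CPM or less in the rest. The estimated log2 changes were 2.58 ± 1.70 and 1.68 ± 1.38 (SE) for miR-196b and miR-196a. miR-10a-5p ran from 8836 to 32848 CPM at month 4 and from 1133 to 28115 CPM at month 6, and was lowest in replicates 2, 3 and 5 of month 6. The 6 HOX-embedded members tested had a median of 0.18, with 0 at an unadjusted p under 0.05 (background 11.7%).

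Vessel, muscle and blood markers gave no call. The endothelial miR-126-3p stood at 3296, 3200, 4338, 4042 and 19000 CPM at month 4 and at 3809, 2944, 3548, 5625 and 3269 CPM at month 6. Replicate 5 of month 4 was far above the rest, which overlapped. The fitted log2 change was -0.67 ± 0.41 (SE), and 0.12 without it. miR-21-5p, induced by growth and injury signals, was at 24943 CPM in the same library and at 14804 and 10517 CPM in replicates 2 and 4 of month 6, against 2258 to 5991 CPM in the other 7. Its log2 change was 0.17 ± 0.64 (SE), 1.33 without replicate 5 of month 4 and -0.77 without the month 6 pair. All 4 arms of the smooth muscle miRNAs miR-143 and miR-145 had estimates above 0 (background 43.5%), with a median of 0.41 (0.23 without the month 6 pair). None of these arms had an unadjusted p under 0.05 (background 11.7%). The summed level of miR-143 and miR-145 was 58463 to 191310 CPM at month 4 and 83495 to 197668 CPM at month 6, highest in replicate 5 of month 4 and replicate 4 of month 6. Of 9 leukocyte miRNAs tested 7 were under 0 (background 56.5%), with a median of -0.45 (-0.05 without the 3 libraries) and 0 at an unadjusted p under 0.05. The leukocyte marker sum was 1571 to 2323 CPM at month 4, 1671 to 1914 CPM in 3 month 6 libraries, and 751 and 701 CPM in replicates 2 and 4. The red blood cell marker sum lay between 12.4 and 62.3 CPM at month 4 and between 12.9 and 39.9 CPM at month 6. Of 5 striated muscle miRNAs the median was 0.53 (0.15 without the pair), with 1 higher (miR-499-5p) at an unadjusted p under 0.05. Of 8 neural and neuroendocrine miRNAs it was 0.05, with 1 higher (miR-129-3p). Over all miRNAs tested 5.99% were higher at that threshold. The liver miRNA miR-122, 1 of the markers, had -0.33 (0.15 without the pair), and the 1 red blood cell miRNA tested had -0.41. How far these markers bear on the other differences was not tested.

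Few members of growth-related families had a small p. Over 15 miRNAs of the miR-17-92 and paralogous clusters the median was 0.17. At an unadjusted p under 0.05, 1 was higher (miR-19b-3p, background 5.99%) and 1 lower (miR-363-3p, background 5.68%). miR-19b-3p stood at 4.66, 1.36, 4.72, 3.83 and 1.16 CPM at month 4 and at 3.32, 27.9, 2.02, 17.6 and 5.10 CPM at month 6. Replicates 2 and 4 of month 6 again stood out, and the log2 change of 1.94 ± 0.74 (SE, edgeR adjusted p = 0.397) was 0.17 without them. The 6 tested miRNAs assigned by name to the miR-17-92 cluster all had estimates above 0 (background 43.5%), with a median of 0.23. That cluster median was 0.19 without the pair and 0.24 without replicate 5 of month 4. The miR-99/miR-100/miR-125 family had a median of 0.27 over 9 members, and the miR-181 family one of 0.33 over 4, each with 1 higher (background 5.99%) and 0 lower (background 5.68%). Without the pair these medians were 0.11 and 0.12. The miR-424/miR-503, miR-29, miR-15/miR-16, miR-23/miR-27/miR-24, miR-148/miR-152, miR-221/miR-222 and miR-199/miR-214 groups had medians between -0.29 and 0.25, and none of their members had an unadjusted p under 0.05 (background 11.7%).

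Over the 4 ages, the values of replicates 2 and 4 of month 6 lay at the level of the newborn ovary for one of these miRNAs and past every earlier age for others. miR-101-3p ran from 935 to 5526 CPM at day 1 (median 2287), from 253 to 590 CPM at month 2 (median 432) and from 345 to 564 CPM at month 4, so replicate 2 of month 6 (5489 CPM) lay near the top of the day 1 range and replicate 4 (6301 CPM) above it. miR-30e-5p ran from 613 to 1344 CPM at day 1 and from 37.7 to 226 CPM at month 2, so that both libraries lay under the day 1 range. let-7b-3p ran from 8.61 to 15.0 CPM at day 1 and from 66.7 to 181 CPM at month 2, so both lay far above any earlier library. miR-1248-5p reached at most 2.65 CPM at day 1 and 6.21 CPM at month 2. miR-363-3p had means of 22.7 ± 5.45, 12.2 ± 5.15, 9.33 ± 2.86 and 4.08 ± 2.10 CPM at day 1 and months 2, 4 and 6 (SD, n = 5), and the ranges of neighbouring ages overlapped at each step. miR-129-3p had means of 2.45 ± 1.05, 14.5 ± 3.30, 13.5 ± 3.62 and 32.6 ± 21.2 CPM. No test of the other age steps was made here.

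Values far above the group median also occur for some of these miRNAs in uterus, and the labels do not tie an ovary and a uterus to 1 goat. The ranges below do not show whether the same uterus libraries held them. miR-101-3p there ran from 119 to 4060 CPM at month 4 (median 419) and from 135 to 4966 CPM at month 6 (median 272). miR-1248-5p reached 55.3 CPM at month 4 and 40.3 CPM at month 6, with medians of 3.45 and 5.48 CPM. let-7b-3p reached 2209 and 2489 CPM at these ages, with medians of 128 and 206 CPM.

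The change from month 4 to month 6 was not shown to differ between the tissues. In the interaction fit of edgeR over all 40 libraries 0 of 350 miRNAs were called (0%), and 13 had an unadjusted p under 0.05 (3.71%). In uterus alone 0 of 331 were called and 15 had an unadjusted p under 0.05 (4.53%). The smallest interaction p was that of miR-9-5p, a miRNA known from neural tissue, with a uterus minus ovary difference of 1.97 ± 0.60 (SE, edgeR adjusted p = 0.814), from log2 changes of -0.16 in ovary and 1.81 in uterus in that joint fit. miR-9-5p was called without replicate 1 of month 6 ovary (2.47, edgeR adjusted p = 0.0427), without replicate 5 of month 6 uterus (2.60, adjusted p = 0.0364) and without 5 libraries of both tissues that stood apart (2.79, adjusted p = 0.0316). For the difference uterus minus ovary, miR-183 was called without replicate 1 of month 6 ovary as well (4.49, edgeR adjusted p = 0.0162). Among miRNAs at a mean of at least 10 CPM over the 20 libraries of months 4 and 6, the other 4 with the smallest p for a higher change in uterus were miR-494, miR-655, miR-409-5p and miR-183, with differences of 1.63, 1.06, 1.07 and 2.34. At the same minimum, those for a lower change in uterus were miR-214-5p, miR-335-5p, miR-100-5p, miR-1248-5p and miR-148a-3p, with -1.11, -1.86, -0.66, -2.73 and -1.65. The DLK1-DIO3 members tested in uterus had a median of 0.16, the miR-200 family 1.75 and the miR-34/miR-449 family 1.92, with ovary medians of -0.79, -0.55 and -0.81 from the ovary fit, and a difference of these medians was not tested. Across 313 miRNAs tested in both tissues the log2 changes had a Pearson correlation of 0.0816 and a Spearman correlation of 0.182. This is a description over miRNAs, which are not independent replicates, and the tissues share no library in it.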

How the data were processed

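Per the labels' protocols, total RNA was extracted with TRIzol from ovary and uterus, and miRNA libraries were made with the usual Illumina methods. The authors deposited unnormalized read counts per mature miRNA and library. The tools listed in the submitters' processing notes are Bowtie 1.0.1, RSEM 1.3.0 and cutadapt 1.16, with neither role nor order. Not given in the sources used here are the reference build, its annotation and the handling of reads that match several miRNAs. The goat prefix of the names is left out. miRNA sequences were not used here.

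Groups follow the tissue and age of the labels. The members, lists and libraries left out were chosen with earlier results of these data known. Counts were fitted in R 4.3.3 with edgeR 4.0.16 over the 20 ovary libraries (filterByExpr, TMM scaling, quasi-likelihood test), and the contrast was month 6 minus month 4. Benjamini-Hochberg adjustment ran over every miRNA of a fit, and an adjusted p under 0.05 was a call. The SE is the absolute log2 change divided by the square root of F. CPM are counts scaled to a common library total. Arm ratios were fitted with limma 3.58.1 on log2 of CPM plus a pseudocount of 1, so that the size of ratios with a low arm is understated. The interaction was fitted over 40 libraries. The depth (5889079 counts or more per library) leaves little counting error except for miRNAs of a few CPM, and spread between libraries sets the precision. With 1 library per individual, differences between goats and between library preparations cannot be told apart in that spread.

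Named are the 10 miRNAs with the smallest p in each direction at a mean of at least 10 CPM, the 10 most abundant, list members, those called by DESeq2 1.42.0 or voom, and 5 arm ratios and 5 interactions in each direction. Alternatives were other scalings, other filters, DESeq2, voom, a replicate block, a fit of the 10 libraries alone and each replicate left out. Leaving out the libraries that stood apart was chosen after seeing the data, and DESeq2 was run without a filter. The code was tested on simulated data. A planned test on sums over shared seeds was not run. Within a group no 2 libraries held identical counts.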

Additional observations from a re-analysis of the deposited data

Results flagged for a closer look

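In 19 of 86 groups of 5 libraries, the highest or lowest lay farther from its neighbour than Dixon's limit, 0.710 of the range. About 1 in 20 groups of normally distributed values pass that limit by chance. The miRNA levels were taken as CPM without logs, so that rate need not hold for them. Many of these miRNAs were named for a small p and vary together across libraries, so the count is a description and is not set against that rate. 14 of the 19 came from replicate 5 of month 4, which was the highest month 4 library each time. The DLK1-DIO3 miRNAs among them were miR-412-5p at 279 CPM (next 31.3), miR-493-3p at 585 CPM (next 83.7), miR-323b at 150 CPM (next 29.2), miR-3958-3p at 391 CPM (next 74.9), miR-493-5p at 2033 CPM (next 550.1), miR-495-3p at 162 CPM (next 42.0), miR-382-3p at 204 CPM (next 58.1), miR-379-5p at 4694 CPM (next 885) and miR-127-3p at 39517 CPM (next 14791). miR-136-5p stood at 0.290 CPM there and at 0 in the other month 4 libraries. From outside the locus came miR-143-3p at 181792 CPM (next 81395), miR-202-5p at 252 CPM (next 82.7), miR-126-3p at 19000 CPM (next 4338) and miR-21-5p at 24943 CPM (next 5991).

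miR-129-3p stood at 69.5 CPM in replicate 2 of month 6, with the next library at 29.3 CPM. miR-200b stood at 30654 CPM in replicate 1 of month 6, with the next at 3344 CPM. miR-34c-5p stood at 5967 CPM in replicate 4 of month 4, with the next at 1182 CPM. The number of miRNAs with at least 1 count was lowest in replicate 2 of month 4, at 334 with the next library at 360, and in replicate 3 of month 6, at 344 with the next at 362.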

How the results depend on the processing

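The count of calls stayed at 0 in edgeR under each scaling, filter and library left out, was 5 with the Wald test of DESeq2 after the filter, and was 1 with DESeq2 and no filter (miR-101-3p). With each replicate left out the count ran from 0 to 0, and the smallest adjusted p from 0.0531 to 0.996. The labels do not say whether replicate numbers pair libraries, and they were not used as pairs: deviations of same-numbered libraries correlated above 0.1 in 4 of 5 pairs and at -0.57 in the third, and 3 of 10 libraries correlated best with their own number. The fit with the replicate block called 0 and gave 23 miRNAs at an unadjusted p under 0.05 in place of 37. Without the block, 10 were left without replicate 2 of month 6 and 20 without replicate 4, and there were 58 without replicate 1. A fit of the 10 compared libraries alone gave 12, and the filter of at least 10 CPM in 5 libraries gave 29 of 252. The test over shared seeds was not run, since no mature sequences were used.

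Without all 3 libraries the miR-99/miR-100/miR-125 median was -0.047, the leukocyte median -0.049 and the DLK1-DIO3 median -0.10. Without replicates 2 and 4 of month 6 the miR-148/miR-152 median was -0.31. The let-7 median was 0.10 in that fit. Over single replicates left out the DLK1-DIO3 median ran from -1.01 to -0.17, the miR-200 median from -2.44 to 0.49 and the miR-34/miR-449 median from -2.54 to 0.61. Interaction calls ran from 0 to 3 with single replicates left out, and 1 was made without 5 libraries of both tissues, where the miR-1248-5p difference was 0.40. The difference in detected miRNAs was 5, -2.6 at a minimum of 10 counts, and -0.6 to 9.35 with single replicates left out.

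The sign of these log2 changes turned, and the cause was not tested. Without replicates 2 and 4 of month 6 it turned for miR-30e-5p (-0.013), miR-1248-5p (-0.47), let-7b-3p (-0.51), miR-455-5p (-0.33), miR-143-3p (-0.28), miR-99a-5p (-0.12), let-7a-5p (0.24), miR-26a-5p (-0.13), let-7c-5p (0.13), miR-148a-3p (-0.59), let-7b-5p (0.10), miR-21-5p (-0.77), miR-136-3p (-0.56), miR-30a-5p (-0.013) and the let-7e arm ratio (0.40). Without all 3 libraries it turned for miR-101-3p (-0.082), miR-1248-5p (-0.55), let-7b-3p (-0.69), miR-455-5p (-0.29), miR-412-5p (0.094), miR-323b (0.17), miR-3958-3p (0.066), miR-99a-5p (-0.23), let-7a-5p (0.066), miR-125b-5p (-0.11), miR-26a-5p (-0.21), miR-148a-3p (-0.46), miR-125a-5p (-0.15), miR-202-5p (0.41), miR-136-3p (-0.16), miR-19b-3p (-0.048) and the let-7e arm ratio (0.51). With voom it turned for miR-323b (0.10), miR-99a-5p (-0.073), miR-26a-5p (-0.11) and miR-202-5p (0.11), and with library totals alone for miR-21-5p (-0.028). With single replicates left out, ranges that crossed 0 were -1.77 to 0.036 for miR-412-5p, -0.11 to 0.68 for miR-143-3p, -0.25 to 0.32 for miR-10b-5p, -0.85 to 0.046 for let-7c-5p, -0.51 to 0.64 for miR-202-5p, -3.02 to 0.49 for miR-200b, -1.15 to 1.08 for miR-34c-5p, -0.96 to 0.12 for miR-126-3p and -0.20 to 1.33 for miR-21-5p.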

Other observations

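Groups of neighbouring genes outside the lists had these values, against 56.5% under 0 and 43.5% above 0 over all miRNAs tested. The genes of each group lie within 10 kb of the next one in RefSeq's ARS1.2 annotation. Of 6 mature miRNAs tested from the miR-500/miR-502 group of genes, 4 were under 0, with a median log2 change of -0.16. All 4 of miR-191 and miR-425 were under 0, with a median of -0.26. Of the 3 from miR-374b and miR-421, 2 were above 0, with a median of 0.78, which was -0.10 without replicates 2 and 4 of month 6. Of the 3 from miR-454 and miR-301a, 2 were above 0, with a median of 0.07, and of -0.15 without that pair. None of these was called.

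Both arms of miR-708 had a lower estimate at month 6 without replicates 2 and 4 of that age, which was not so with them. miR-708-5p stood at 26.5, 11.9, 22.0, 24.9 and 47.3 CPM at month 4 and at 10.4, 63.7, 11.5, 27.7 and 13.7 CPM at month 6. Its log2 change was 0.08 with all libraries and -1.10 without the pair, and that of miR-708-3p was 0.88 and -0.96. These were picked out after their values were seen, and neither was called in either fit.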
